A study of Mus musculus with 12 samples.

Results

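Transcripts of 8 genes of the outer bone surface and of the sites where tendon, ligament and joint tissue attach to it were followed in RNA from mouse tibia shafts. The genes were *Postn*, *Tnc*, *Thbs4*, *Tnmd*, *Scx*, *Mkx*, *Prg4* and *Prrx1*. They were chosen by name, as the entries of the count matrix with one of these symbols, and all 8 were found among its 47069 genes. The study asked how loss of *Sost*, which encodes the bone formation inhibitor sclerostin, changes bone in a mouse with a dominant collagen defect. There were 12 male mice aged 8 weeks on a mixed FVB and C57BL/6 background, with 4 mice per group and 1 library per mouse. Tibia shafts were flushed of marrow, minced and homogenized whole, so that a library held RNA of the bone and of whatever soft tissue stayed on it.

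Jrt;Sost-het mice carried the *Col1a1* Jrt allele on one chromosome (Col1a1Jrt/+), a splice variant by which an exon of the collagen I chain is skipped, and 1 intact copy of *Sost*. The labels give these mice by their *Col1a1* genotype, while the *Sost* genotype comes from the study's methods. Jrt;Sost-ko mice carried the same Jrt allele and no intact copy of *Sost* (Sost-/-). WT mice had neither variant and were bred in a parallel colony, and in any comparison with WT, colony and genotype cannot be told apart. The Jrt allele was thus common to the first 2 groups, called the Jrt groups here, which differed from each other in *Sost*. A difference between the Jrt groups is always given as Jrt;Sost-ko relative to Jrt;Sost-het, and one against WT as the Jrt group relative to WT. Mouse numbers follow the labels' order inside a group, and equal numbers link no mice across groups.

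The periosteum is the fibrous and cellular sheath around bone, and it holds progenitors that can become bone or cartilage cells. Tendons and ligaments enter the bone through the periosteum at attachment sites, where collagen fibers run on into the bone matrix. *Prrx1* and *Scx* encode transcription factors of limb mesenchyme and of tendon progenitors, *Mkx* encodes a further tendon transcription factor, and *Tnmd* encodes tenomodulin, a membrane protein of mature tendon cells. *Postn*, *Tnc* and *Thbs4* encode the extracellular proteins periostin, tenascin C and thrombospondin 4. *Prg4* encodes lubricin, the lubricating proteoglycan of joint surfaces and tendon sheaths.

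Positions were taken from the GENCODE M21 annotation of GRCm38, the build of the files, and each gene is annotated as protein coding. *Postn* (ENSMUSG00000027750) spans bases 54361109 to 54391037 of chromosome 3 (plus strand). *Tnmd* (ENSMUSG00000031250) lies on the plus strand of the X chromosome from 133850980 to 133865577. *Scx* (ENSMUSG00000034161) occupies positions 76457452 to 76459458 of the plus strand of chromosome 15, inside the span of *Bop1* on the opposite strand, with 0 exon bases in common. *Tnc* (ENSMUSG00000028364) lies on the minus strand of chromosome 4 from 63959785 to 64047015, and *Thbs4* (ENSMUSG00000021702) on the minus strand of chromosome 13 from 92751590 to 92794818. *Prg4* (ENSMUSG00000006014) and *Prrx1* (ENSMUSG00000026586) lie on the minus strand of chromosome 1, from 150449412 to 150466165 and from 163245119 to 163313710. *Prg4* shares 204 exon bases (4.77% of its exon bases) with *Tpr*, *Tnc* shares 176 (2.26%) with 8030451A03Rik and *Mkx* shares 201 (4.91%) with AC148004.2. *Tpr* and 8030451A03Rik lie on the opposite strand of their partners, and AC148004.2 lies on the same strand as *Mkx*. The strand setting of the counting is not given in the sources used here. Reads on shared bases could belong to either gene, and for *Mkx* this holds under any strand setting.

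The upstream sequences of 4 of the matrix and membrane genes are shown. These genes varied together between mice, as did the others of the 8 genes except *Prg4*. RefSeq (GRCm38.p6) gave an entry for 5 of the 8 genes, of which *Prrx1*, a transcription factor gene, is not printed. Each sequence is the 250 bases before an annotated transcript start, read 5′ to 3′ on the gene's own strand, and capitals mark 2 motifs. The motifs are CANNTG, the E-box letters that basic helix-loop-helix proteins such as Scx can bind, and TATAAA, searched on either strand. The windows are chrX:133850758-133851007 (plus strand) for *Tnmd*, chr13:92794819-92795068 (minus strand) for *Thbs4*, chr3:54360857-54361106 (plus strand) for *Postn* and chr4:64047016-64047265 (minus strand) for *Tnc*. The last bases of the *Tnmd* window lie inside the gene as GENCODE draws it.
Tnmd: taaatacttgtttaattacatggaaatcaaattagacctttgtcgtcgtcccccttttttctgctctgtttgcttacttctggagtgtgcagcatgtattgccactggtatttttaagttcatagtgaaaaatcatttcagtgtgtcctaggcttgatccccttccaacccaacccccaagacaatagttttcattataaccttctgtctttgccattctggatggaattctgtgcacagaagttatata
Thbs4: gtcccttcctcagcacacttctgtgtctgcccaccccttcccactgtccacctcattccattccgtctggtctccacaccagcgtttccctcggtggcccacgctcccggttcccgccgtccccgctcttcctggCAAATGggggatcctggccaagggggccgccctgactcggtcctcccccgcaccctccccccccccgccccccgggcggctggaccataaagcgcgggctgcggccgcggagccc
Postn: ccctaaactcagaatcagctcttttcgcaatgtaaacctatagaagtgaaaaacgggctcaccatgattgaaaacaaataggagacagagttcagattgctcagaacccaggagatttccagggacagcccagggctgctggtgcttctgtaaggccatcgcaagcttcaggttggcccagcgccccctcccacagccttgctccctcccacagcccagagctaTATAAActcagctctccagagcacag
Tnc: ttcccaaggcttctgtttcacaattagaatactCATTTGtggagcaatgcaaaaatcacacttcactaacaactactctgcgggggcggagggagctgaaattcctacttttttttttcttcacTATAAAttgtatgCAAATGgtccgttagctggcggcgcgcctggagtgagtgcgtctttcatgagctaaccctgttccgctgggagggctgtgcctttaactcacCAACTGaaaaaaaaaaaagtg

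The *Tnmd* and *Postn* windows held 0 E-boxes, the *Thbs4* window held 1 (CAAATG, from position -115, where -1 is the base before the start), and the *Tnc* window held 3. Of 32851 promoter entries of the same length, 66.2% held at least 1 E-box, 12.2% held at least 3 and 33.8% held none. TATAAA stood once in the *Postn* window, from position -26, and once in the *Tnc* window, from position -126. It was found in 12.4% of all entries. The *Prrx1* window, which is not printed, held neither motif.

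Reads counted on genes ranged from 24366061 to 44418863 per library, and expression is given as CPM (counts scaled to library size) after TMM scaling over the 12 libraries. *Sost*, the targeted gene, was at 39.9 ± 20.6 CPM among Jrt;Sost-het, 0.671 ± 0.418 CPM among Jrt;Sost-ko and 53.4 ± 18.8 CPM among WT mice (SD, n = 4 each). Bone genes were abundant in every library, with 2.33% to 6.99% of counts on a list of 12 bone genes that includes *Col1a1*. Other tissues varied between libraries. A list of 18 skeletal muscle genes took from 0.00322% of counts (Jrt;Sost-ko mouse 4) to 3.21% (WT mouse 4). A list of 14 epidermal genes summed to 211 and 815 CPM in WT mice 3 and 4 and to between 20.6 and 31.1 CPM in the other mice. Differences from WT are given below with and without WT mice 3 and 4.

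Per kilobase of exon, the 8 genes covered a wide range of levels. The median over the 12 mice was 126 CPM per kb for *Prg4*, 78.6 for *Tnc*, 67.5 for *Postn* and 18.8 for *Thbs4*. On the same scale it was 9.19 for *Tnmd*, 8.17 for *Prrx1*, 1.80 for *Scx* and 0.930 for *Mkx*. Most neighbors in this order were separated in every mouse or nearly so. *Tnc* was above *Postn* in 11 of 12 mice, and *Postn* was above *Thbs4*, *Thbs4* above *Tnmd*, *Prrx1* above *Scx* and *Scx* above *Mkx* in 12 of 12. *Prg4* was above *Tnc* in 7 of 12 mice and *Tnmd* above *Prrx1* in 6 of 12, so that these neighbors were not separated. The matrix genes *Tnc* and *Postn* were thus well expressed in the flushed shaft, whereas the tendon transcription factors *Scx* and *Mkx* were near the low end, with 50 to 219 and 85 to 207 counts per library.

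No significant difference between groups was found for any of the 8 genes. In 24 tests (8 genes in 3 comparisons) edgeR's quasi-likelihood test called 0 at an adjusted p under 0.05, and 0 had an unadjusted p under 0.05. DESeq2 also called 0, with 0 at an unadjusted p under 0.05. Of all genes tested, edgeR called 0.00597% between the Jrt groups, 0% in Jrt;Sost-het against WT mice and 0.00583% in Jrt;Sost-ko against WT mice. In the first and the last comparison the called gene was *Sost* alone. At an unadjusted p under 0.05 the shares were 5.02%, 2.14% and 3.89%, and DESeq2 called 0.114%, 0% and 0.0886%. The groups overlapped in all 24 tests, where 3.2%, 1.54% and 2.4% of all genes had groups that did not overlap. Every one of the 24 intervals of 95% included 0, and the plot of differences between groups shows their widths. In whole bone RNA, fewer cells of a type and less RNA per cell cannot be told apart, which holds for each value given here.

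**Figure D1:**
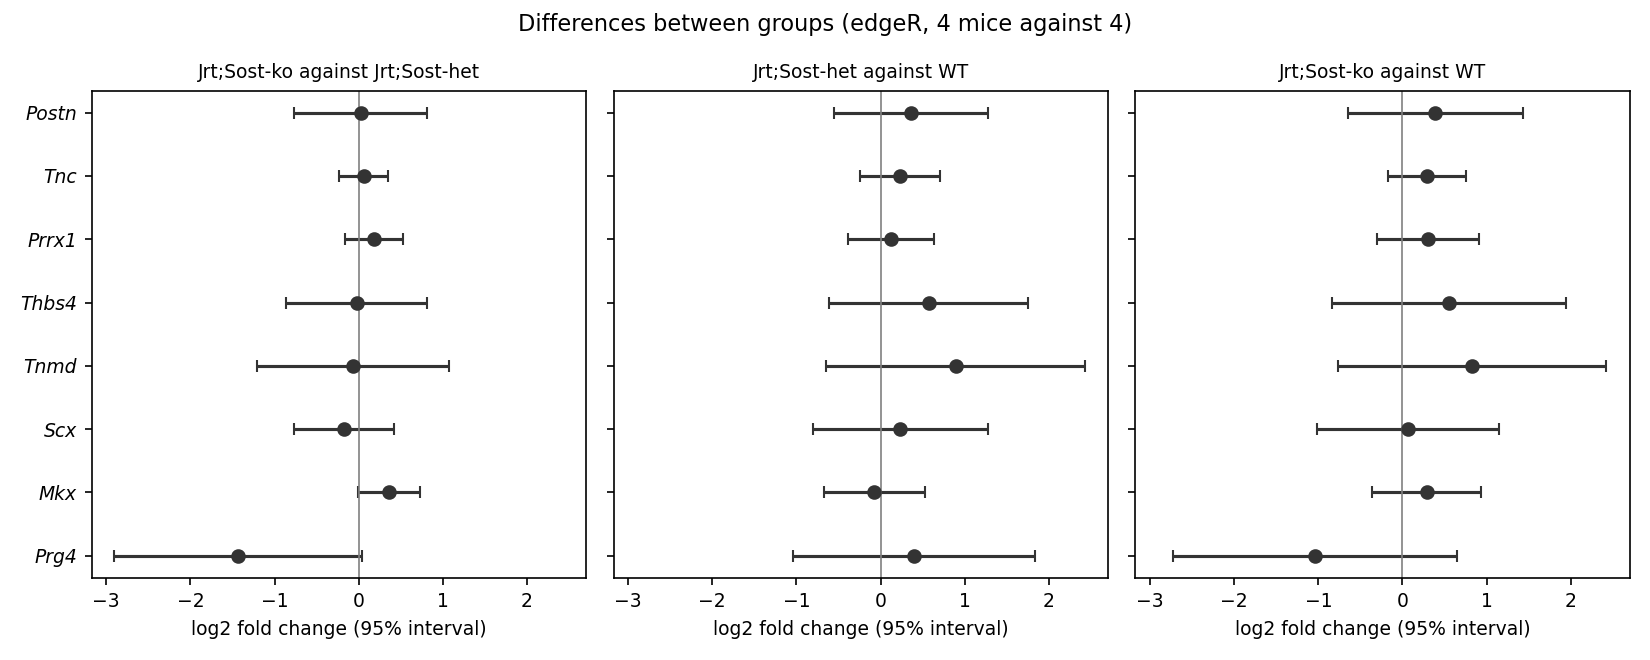
Log2 fold change of the 8 genes (points) with its 95% interval (bars) from edgeR, 4 mice against 4, for the 3 comparisons. All 24 intervals cross 0, and the widest belong to *Prg4* and *Tnmd*.

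Among the transcription factors, *Prrx1* was the most abundant. It was at 93.6, 90.9, 83.2 and 84.3 CPM in mice 1 to 4 of Jrt;Sost-het, at 103, 109, 118 and 67.7 CPM in those of Jrt;Sost-ko and at 63.9, 53.4, 90.0 and 117 CPM in those of WT. Jrt;Sost-het mice lay close together, while Jrt;Sost-ko mouse 4 and WT mice 1 and 2 were below all of them. Between the Jrt groups the log2 fold change was 0.18 (standard error 0.153, 95% interval -0.16 to 0.53), and it was between 0.088 and 0.32 when single mice were left out. Against WT it was 0.12 for Jrt;Sost-het mice and 0.30 for Jrt;Sost-ko mice.

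*Mkx* had the smallest unadjusted p of the 24 tests. Its level was 3.74, 3.36, 3.88 and 3.52 CPM in Jrt;Sost-het mice and 5.14, 5.38, 4.65 and 3.46 CPM in Jrt;Sost-ko mice. In WT mice it was 2.47, 2.94, 4.14 and 5.73 CPM. Of the Jrt;Sost-ko mice, 3 were above every Jrt;Sost-het mouse and mouse 4 lay among them. The difference between these groups was 0.36 on the log2 scale (standard error 0.163, 95% interval -0.01 to 0.73), with p = 0.0530 from edgeR, adjusted p = 0.901 and p = 0.114 by an exact two-sided permutation test. With 4 mice against 4, the smallest p that this exact test allows is 0.0286.

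*Scx* was at 5.52, 4.20, 3.05 and 3.77 CPM in Jrt;Sost-het mice, 3.46, 3.39, 5.32 and 2.45 CPM in Jrt;Sost-ko mice and 1.55, 1.71, 4.70 and 6.07 CPM in WT mice. The highest and the lowest values were both in WT mice. It differed by -0.17 on the log2 scale between the Jrt groups (standard error 0.265, 95% interval -0.77 to 0.43), by 0.23 in Jrt;Sost-het against WT mice and by 0.06 in Jrt;Sost-ko against WT mice. The value between the Jrt groups was -0.41 without Jrt;Sost-ko mouse 3 and -0.0095 without Jrt;Sost-het mouse 1. In Jrt;Sost-ko against WT mice it was -0.19 without WT mouse 1 and 0.46 without WT mouse 4, so its direction depended on single mice.

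*Tnmd*, the tendon cell membrane protein, varied most between mice, by 14.3 times from the lowest to the highest. It was at 25.5, 13.6, 6.25 and 17.9 CPM in Jrt;Sost-het mice, 21.6, 11.3, 22.1 and 5.22 CPM in Jrt;Sost-ko mice and 5.46, 1.78, 6.95 and 19.8 CPM in WT mice. The lowest library, WT mouse 2, held 52 counts and the highest 827. Between the Jrt groups the log2 fold change was -0.07 (standard error 0.503, 95% interval -1.21 to 1.07). Against WT it was 0.89 for Jrt;Sost-het and 0.83 for Jrt;Sost-ko mice, with intervals of -0.65 to 2.43 and -0.77 to 2.42. Each of these 3 intervals held a rise of 2-fold, so such a rise was not excluded.

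*Thbs4*, a matrix protein of tendon and muscle attachments, had a similar pattern. It was at 85.1, 63.1, 48.4 and 71.5 CPM in Jrt;Sost-het mice, 113, 60.3, 63.8 and 26.4 CPM in Jrt;Sost-ko mice and 27.8, 11.96, 52.6 and 88.0 CPM in WT mice. WT mouse 2 was again the lowest, followed by Jrt;Sost-ko mouse 4 and WT mouse 1. Its log2 fold change was -0.02 between the Jrt groups (standard error 0.370, 95% interval -0.86 to 0.81), and against WT it was 0.57 for Jrt;Sost-het mice and 0.55 for Jrt;Sost-ko mice.

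*Postn*, which periosteal fibroblasts and progenitors secrete, was at 706, 778, 589 and 355 CPM in Jrt;Sost-het mice and 585, 792, 815 and 267 CPM in Jrt;Sost-ko mice. In WT mice it was at 275, 251, 569.7 and 786 CPM. The means of the Jrt groups differed by little beside their spread, at 607 ± 186 CPM for Jrt;Sost-het and 615 ± 254 CPM for Jrt;Sost-ko (SD, n = 4 each), a fold of 1.02 (95% interval 0.586 to 1.76). WT mice had 471 ± 255 CPM (SD, n = 4). Against WT the log2 fold change was 0.37 (standard error 0.400) for Jrt;Sost-het and 0.39 (standard error 0.455) for Jrt;Sost-ko mice.

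*Tnc* varied least, by 2.02 times over the 12 mice. It was at 753, 539, 691 and 607 CPM in Jrt;Sost-het mice, 615, 720.0, 764 and 596 CPM in Jrt;Sost-ko mice and 484, 378, 606 and 744 CPM in WT mice. WT mice 2 and 1 were the lowest. The comparison of the Jrt groups was also the most precise for this gene, with a fold of 1.04 (95% interval 0.853 to 1.27). Against WT the log2 fold change was 0.23 (standard error 0.210) for Jrt;Sost-het and 0.29 (standard error 0.204) for Jrt;Sost-ko mice. Both values were lowest without WT mouse 2, at 0.091 and 0.15, and highest without WT mouse 4, at 0.41 and 0.47.

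*Prg4*, the lubricin gene, had the largest difference between groups. It was at 377, 1526, 997 and 498 CPM in Jrt;Sost-het mice and 154, 163, 779 and 159 CPM in Jrt;Sost-ko mice. In WT mice it was at 866, 124, 1021 and 579 CPM. Of the Jrt;Sost-ko mice, 3 were below every Jrt;Sost-het mouse, whereas mouse 3 was above 2 of them. The difference between the Jrt groups was -1.43 on the log2 scale (standard error 0.650, 95% interval -2.91 to 0.04), with p = 0.0552 and adjusted p = 0.901 from edgeR and p = 0.0857 by an exact two-sided permutation test. When single mice were left out, it ranged from -2.42 (without Jrt;Sost-ko mouse 3) to -0.99 (without Jrt;Sost-het mouse 2), and the smallest adjusted p from edgeR was 0.565. WT mice reached from the lowest value of all to 1021 CPM, and against WT the log2 fold change was 0.40 (standard error 0.631) for Jrt;Sost-het and -1.04 (standard error 0.737) for Jrt;Sost-ko mice.

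**Figure D2:**
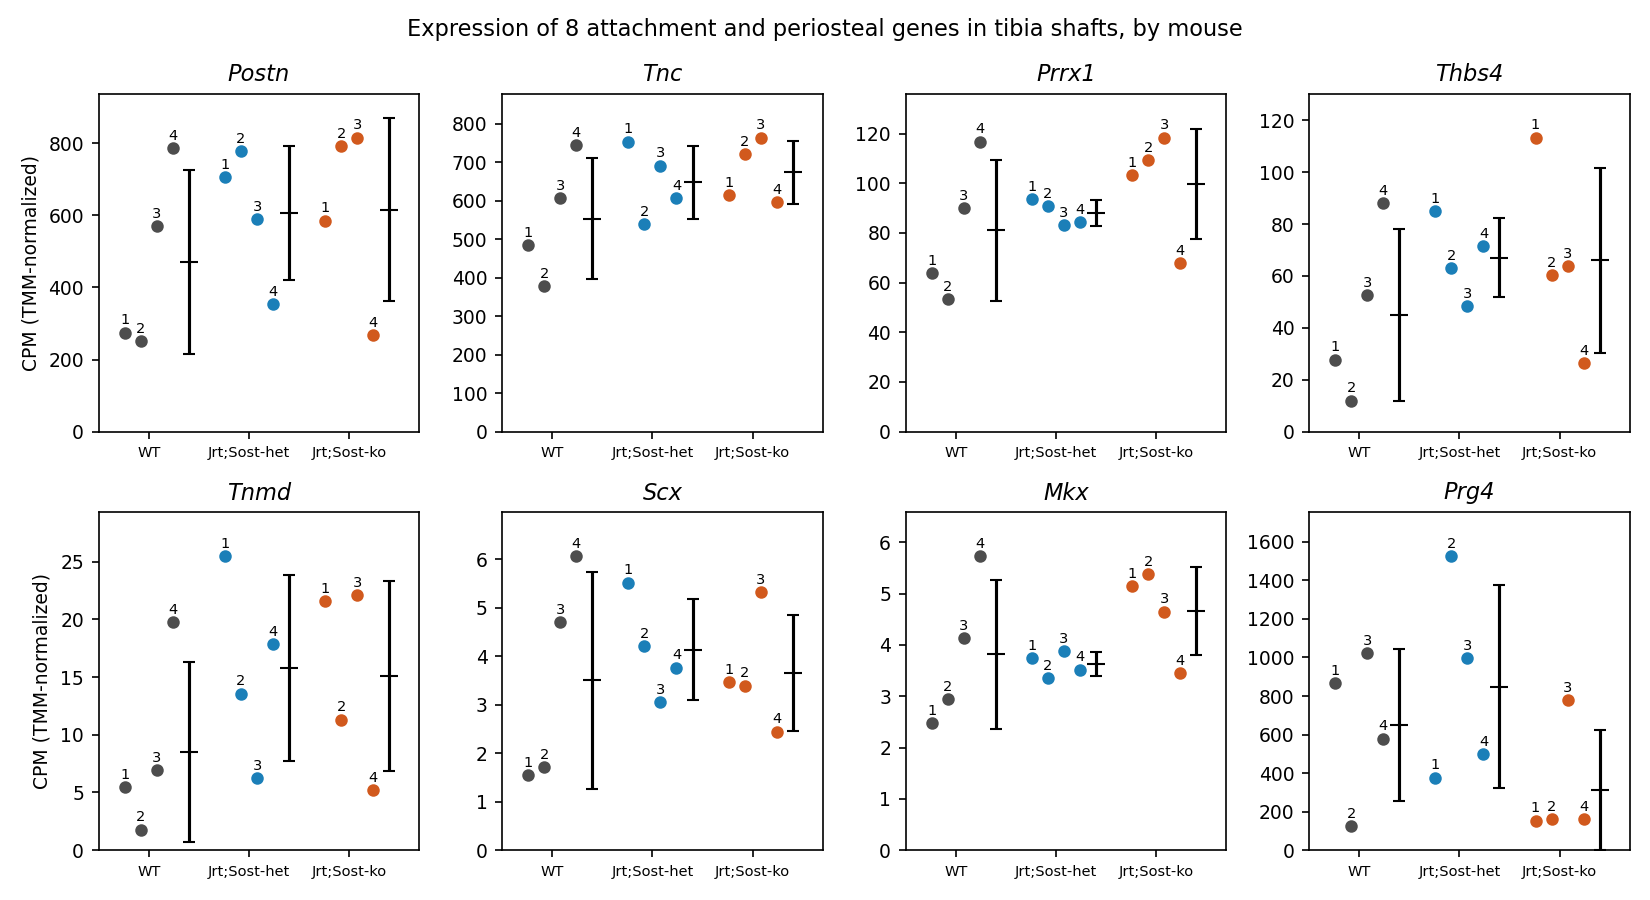
Expression of the 8 genes (vertical axes, TMM-normalized CPM from 0) in each mouse of each group, with the mouse number above each point and the group mean with its standard deviation beside it (n = 4). WT mice 1 and 2 and Jrt;Sost-ko mouse 4 are low for most genes, and in *Prg4* only mouse 3 of the Jrt;Sost-ko mice is above 163 CPM.

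The genes other than *Prg4* were low and high in the same mice. Of these 7 genes, all 7 were among their 3 lowest values in WT mouse 2 and in WT mouse 1, and 5 were in Jrt;Sost-ko mouse 4. The highest values were spread over the groups. Among the 3 highest values were 6 of the genes in WT mouse 4, 5 in Jrt;Sost-ko mouse 3, 4 in Jrt;Sost-het mouse 1 and 3 each in Jrt;Sost-ko mice 1 and 2. In the mean log2 CPM of the 7 genes, WT mice held both ends of the range, with 4.16 in WT mouse 2 and 5.99 in WT mouse 4. For *Scx* and *Mkx* the lowest and highest values were both in WT mice. The spread between mice of 1 genotype was thus as wide as that between all mice for these genes. The highest values of *Postn*, *Tnc*, *Prrx1*, *Thbs4* and *Tnmd* were in mice of the Jrt groups.

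Relations between the 8 genes were computed over the 12 mice on the log2 CPM scale after the values had been seen, as 28 pairs with 100000 permutations each. In the 21 pairs without *Prg4*, Pearson's r was between 0.60 and 0.94 (median 0.78) and Spearman's rho between 0.56 and 0.92. Of these pairs, 20 passed an adjusted permutation p of 0.05 by r and 17 by rho. No share over pairs of all genes is given beside these counts, so they show no trait particular to these genes. The closest pair was *Tnmd* and *Thbs4*, with r = 0.94 and rho = 0.92 (permutation p = 1e-05, the smallest the permutations can give, and 5e-05; adjusted p = 0.00028 and 0.0014). *Postn* and *Prrx1* followed with r = 0.91 and rho = 0.90 (permutation p = 3e-05 and 0.0002; adjusted p = 0.00042 and 0.0028). As deviations from the group means, r in the 21 pairs was between 0.65 and 0.93. After leaving out the 2 mice farthest from the first gene's median it was between 0.27 and 0.86, so that part of the closeness rested on such mice.

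*Prg4* stood apart from this pattern. Its r with the other genes was between -0.16 (*Mkx*) and 0.35 (*Postn*), rho was between -0.07 and 0.32, and 0 of 7 pairs passed, the smallest adjusted permutation p being 0.320 by r and 0.390 by rho. Within the groups its r with the other genes was between 0.12 and 0.48. Jrt;Sost-ko mice 1 and 2 were among the 3 highest mice for 3 of the other 7 genes each and had 154 and 163 CPM of *Prg4*. WT mouse 1, low for the other 7 genes, had 866 CPM.

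The mice low in the 7 genes were also low in other connective tissue genes. WT mouse 2, Jrt;Sost-ko mouse 4 and WT mouse 1 were the 3 lowest of 12 in a list of 15 other tendon genes and in a list of 15 other periosteal genes. In the 11 bone genes other than *Sost*, WT mice 2 and 1 were the lowest and Jrt;Sost-ko mouse 4 was the 6th lowest. The same 3 mice were the highest of 12 in a list of 16 marrow genes, at 4.86%, 4.67% and 4.11% of counts in WT mouse 2, WT mouse 1 and Jrt;Sost-ko mouse 4 against 2.72% to 3.88% in the other mice. The bone list without *Sost* and the marrow list were chosen after values had been seen. 

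Over the 12 mice the 7 genes were high where the bone list was high and low where the marrow list was high. Each of the 8 genes was set against the mean log2 CPM of the 11 bone genes and of the 16 marrow genes, as 16 relations. With the bone list, Pearson's r of the 7 genes was between 0.75 for *Scx* and 0.92 for *Prrx1*, Spearman's rho was between 0.60 and 0.93, and all 7 passed the adjustment over the 16 relations (largest adjusted permutation p = 0.00663 by r and 0.0484 by rho). With WT mouse 2 and Jrt;Sost-ko mouse 2 left out, which had the most extreme bone list values, r was between 0.69 and 0.86. With the marrow list, r was between -0.89 for *Scx* and -0.71 for *Mkx*, rho was between -0.90 and -0.64, and all 7 passed again (largest adjusted permutation p = 0.0116 by r and 0.0337 by rho). With WT mice 2 and 4 left out, the most extreme in the marrow list, r was between -0.85 and -0.54. As deviations from the group means, r was between 0.82 and 0.93 for the bone list and between -0.90 and -0.71 for the marrow list. For *Prg4* neither relation passed, with r = -0.08 (rho = -0.13, adjusted permutation p = 0.800 and 0.699) for the bone list and r = -0.32 (rho = -0.15, adjusted permutation p = 0.323 and 0.695) for the marrow list. No share over all genes is given for these relations either, and the part of bone or marrow content in the levels of the 7 genes was not tested.

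**Figure D3:**
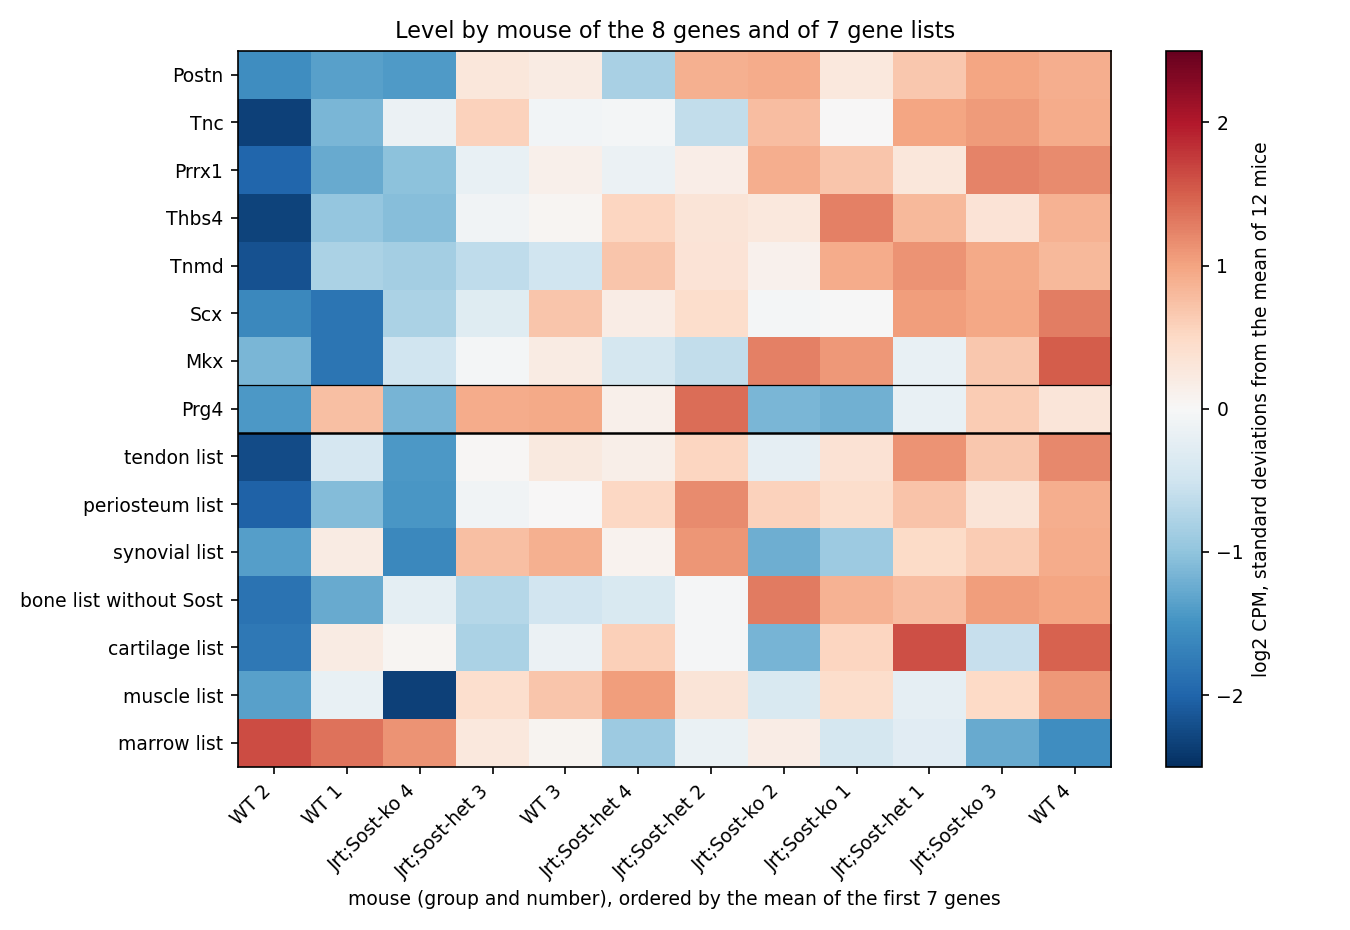
Level of the 8 genes and the mean of 7 gene lists (vertical) in the 12 mice (horizontal, ordered by the mean of the first 7 genes), as standard deviations of log2 CPM from the mean of the 12 mice (color). WT mouse 2, WT mouse 1 and Jrt;Sost-ko mouse 4, at the left, are low in the first 7 genes and in the tendon and periosteum lists and high in the marrow list, and the *Prg4* row follows another order.

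Muscle attaches to the shaft through the same tissue, so each gene was set against the mean log2 CPM of the 18 muscle genes over the 12 mice. Pearson's r was between 0.41 for *Mkx* and 0.71 for *Thbs4*, and no gene passed the adjustment over the 8 relations. For each of the 7 genes this r was smaller in size than those with the bone and the marrow list. Because those 2 lists were chosen after values had been seen, this gives no ranking of the tissues. For *Thbs4*, r was 0.71 (permutation p = 0.0133, adjusted p = 0.0516) and rho was 0.62 (permutation p = 0.0361, adjusted p = 0.144). For *Prg4*, r was 0.61 (permutation p = 0.0285, adjusted p = 0.0516) and rho was 0.45 (permutation p = 0.140, adjusted p = 0.187). For *Postn*, r was 0.59 (permutation p = 0.0387, adjusted p = 0.0516) and rho was 0.35 (permutation p = 0.268, adjusted p = 0.268). The relations rested on Jrt;Sost-ko mouse 4 and WT mouse 2, the 2 mice whose muscle genes lay farthest from the median. Without them r was 0.34 for *Thbs4*, 0.28 for *Prg4* and -0.02 for *Postn*, and for the 8 genes it was between -0.02 and 0.43. Within the groups of 4 mice, r for *Thbs4* was -0.29 for Jrt;Sost-het, 0.91 for Jrt;Sost-ko and 0.99 for WT. Over the 7 genes other than *Prg4*, r within Jrt;Sost-het was between -0.85 (*Postn*) and -0.24 (*Tnmd*). It was between 0.58 (*Tnc*) and 0.99 (*Tnmd*) within Jrt;Sost-ko and between 0.78 (*Mkx*) and 0.99 (*Thbs4*) within WT. The part of muscle in the levels of the 8 genes was not tested.

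**Figure D4:**
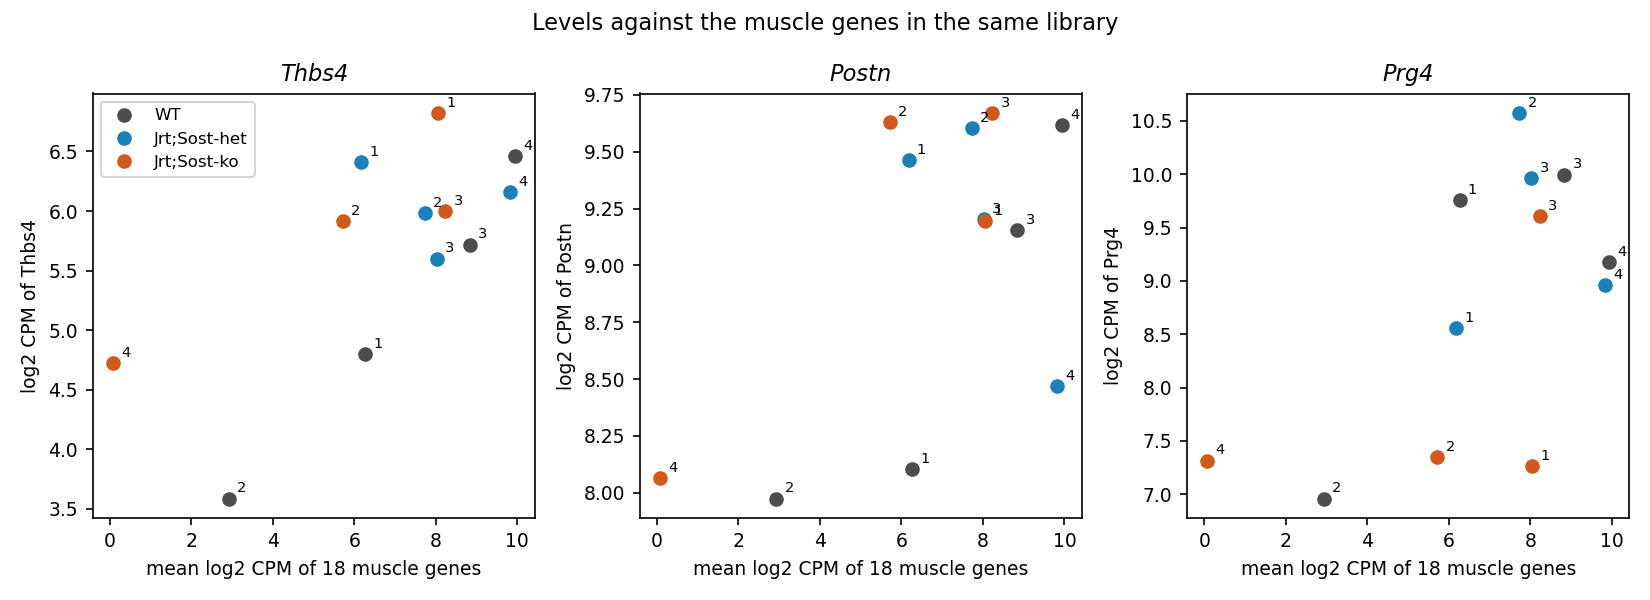
Log2 CPM of *Thbs4*, *Postn* and *Prg4* (vertical axes) against the mean log2 CPM of 18 muscle genes (horizontal axes) in 12 mice, colored by group and numbered by mouse. Jrt;Sost-ko mouse 4 and WT mouse 2 lie far to the left at low levels of each gene, and without them r is 0.34, -0.02 and 0.28.

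In comparisons with WT, the size of the differences depended on which WT mice were kept. WT mice 3 and 4, the libraries with epidermal transcripts, were the higher WT mice in 7 of the 8 genes. Without them the 2 remaining WT mice were those low in these genes, and the log2 fold change of Jrt;Sost-het against WT mice went from 0.89 to 2.13 for *Tnmd*, from 0.57 to 1.77 for *Thbs4*, from 0.23 to 1.36 for *Scx* and from 0.37 to 1.22 for *Postn*. It went from 0.40 to 0.80 for *Prg4*, from 0.23 to 0.61 for *Tnc* and from 0.12 to 0.60 for *Prrx1*. For *Mkx* it turned from -0.08 to 0.44. In Jrt;Sost-ko against WT mice the same step gave 2.05 for *Tnmd*, 1.73 for *Thbs4*, 1.23 for *Postn* and 1.17 for *Scx* (from 0.06 with all WT mice). It gave 0.79 for *Mkx* (from 0.29), 0.77 for *Prrx1* (from 0.30), 0.65 for *Tnc* (from 0.29) and -0.64 for *Prg4* (from -1.04). In each of these comparisons edgeR then called 0 of the 8 genes (smallest adjusted p = 0.114 and 0.304). An unadjusted p under 0.05 from edgeR was then found for 7 of the 8 genes in each. No share over all genes is given beside this count, and only the 2 low WT mice remained. Without WT mouse 2, by contrast, the log2 fold change of Jrt;Sost-het against WT mice was 0.57 for *Tnmd*, 0.26 for *Thbs4* and -0.03 for *Prrx1*.

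Other genes of the same tissues gave no call by edgeR. In the tendon list, edgeR called 0 of 15 genes in each comparison. The log2 fold change was above 0 for 3 of the 15 between the Jrt groups (median -0.30), for 12 in Jrt;Sost-het against WT mice (median 0.26) and for 7 in Jrt;Sost-ko against WT mice (median -0.09). The direction of the last median depended on single mice, since it was -0.35 without WT mouse 2 and 0.33 without WT mouse 4, and it was 0.66 without WT mice 3 and 4. Of all genes tested, 50.4%, 51.3% and 49.1% were above 0, with medians between -0.0030 and 0.0036. *Col12a1*, a collagen of tendon and periosteum and the most abundant gene of the list, had 526 ± 169, 631 ± 279 and 452 ± 291 CPM (SD, n = 4) in the Jrt;Sost-het, the Jrt;Sost-ko and the WT group. *Comp*, a cartilage and tendon matrix protein, had 160 ± 74.1, 85.5 ± 22.7 and 113 ± 93.1 CPM.

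In the periosteum list 0 of 15 genes were called by edgeR in each comparison, with values above 0 for 2, 14 and 12 genes (medians -0.16, 0.34 and 0.14 in the same order of comparisons). *Aspn*, a small proteoglycan of fibrous tissue, had 156 ± 56.9, 139.5 ± 54.5 and 103 ± 53.8 CPM in the same order of groups. *Pdgfra*, a receptor of mesenchymal progenitors, had 104 ± 8.37, 99.6 ± 19.7 and 90.7 ± 22.4 CPM. DESeq2 called 1 gene of this list, *Clec3b*, between the Jrt groups, with 12.5 CPM on average in Jrt;Sost-ko mice, 21.6 CPM in Jrt;Sost-het mice and an adjusted p of 0.0495 from DESeq2 and 0.901 from edgeR. In a list of 10 fibronectin, integrin and matrix enzyme genes that interact with periostin and tenascin C, 0 were called, with 7, 8 and 6 above 0 (medians 0.06, 0.11 and 0.11). *Fn1*, the fibronectin gene, had 1851 ± 588, 1184 ± 322 and 1383 ± 492 CPM.

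The synovial list holds 8 genes of the joint lining and joint surface. Of these genes, 0 were called, and 1, 7 and 1 were above 0 (medians -0.50, 0.16 and -0.33). Its summed level was lowest in Jrt;Sost-ko mice 2 and 4, WT mouse 2 and Jrt;Sost-ko mouse 1, which are the 4 mice with the lowest *Prg4*. The cartilage and muscle lists also lay below 0 in Jrt;Sost-ko mice, whereas the bone list did not. In the bone list without *Sost*, 10 of 11 genes were above 0 between the Jrt groups (median 0.35). Against WT mice, 11 of 11 were above 0 in Jrt;Sost-ko mice (median 0.62). For the marrow list these counts were 12 of 16 (median 0.05) and 5 of 16 (median -0.13). In the cartilage list, 11 of 12 genes were below 0 between the Jrt groups (median -1.79). In Jrt;Sost-ko against WT mice, 11 of 12 were also below 0 (median -1.45). In Jrt;Sost-het against WT mice, 12 of 12 were above 0 (median 0.38). The summed cartilage list was 5292 CPM in Jrt;Sost-het mouse 1 and 4367 CPM in WT mouse 4. In the other mice it was 1051 to 1771 CPM for Jrt;Sost-het and 646 to 1216 CPM for WT. The Jrt;Sost-ko mice had 1345 to 2067 CPM. In the muscle list, 17 of 17 tested genes were below 0 between the Jrt groups (median -1.02) and in Jrt;Sost-ko against WT mice (median -0.93). In Jrt;Sost-het against WT mice, 10 of 18 were above 0 (median 0.08). The summed muscle list was 2584, 6844, 10898 and 31029 CPM in Jrt;Sost-het mice 1 to 4. It was 10162, 2296, 13472 and 32.0 CPM in Jrt;Sost-ko mice and 2856, 250, 13664 and 32790 CPM in WT mice. Mouse 4 was thus the highest Jrt;Sost-het and WT mouse and the lowest Jrt;Sost-ko mouse. No values without single mice are given for the cartilage and the muscle list. edgeR called 0 genes of the cartilage and the muscle list, and the part of cartilage or muscle in the *Prg4* and synovial values was not tested. Within the Jrt;Sost-het and the Jrt;Sost-ko group the cartilage list was highest in mouse 1, the mouse of its group with the least *Prg4*. Within the WT group this list was lowest in mouse 2, the WT mouse with the least *Prg4*. *Clic5* of the synovial list had 69.6 ± 25.1, 31.4 ± 25.9 and 61.7 ± 34.2 CPM.

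For each of the 8 genes, the genes most like it over the 12 mice were sought among 14676 genes with a mean of at least 1 CPM, by Pearson's r of log2 CPM. These r values are a description, since all genes of a library share its depth and its tissue composition. Nearest to *Prg4* were *Htra4* (r = 0.97), *Has1* (r = 0.97), which encodes a hyaluronan synthase, and *Tmem196* (r = 0.97). *Htra4* was at 5.04, 4.70, 47.6 and 7.79 CPM in Jrt;Sost-ko mice 1 to 4, and *Has1* at 1.96, 2.05, 5.03 and 1.34 CPM, so that mouse 3 was again the high one. *Has1* is in the synovial list.

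**Figure D5:**
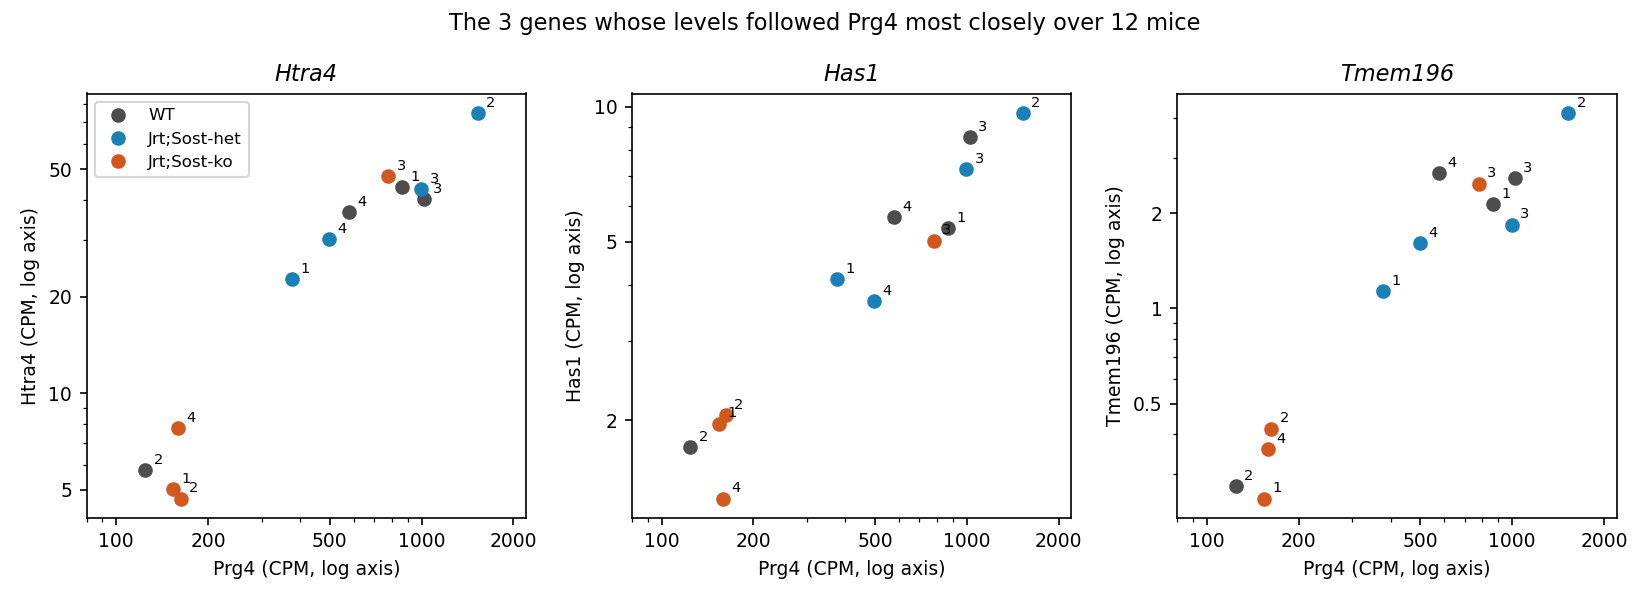
CPM of *Htra4*, *Has1* and *Tmem196* (vertical log axes) against CPM of *Prg4* (horizontal log axes) in 12 mice, colored by group and numbered by mouse. In each panel Jrt;Sost-ko mice 1, 2 and 4 and WT mouse 2 form a low cluster, and Jrt;Sost-ko mouse 3 lies with the other mice.

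Nearest to *Tnmd* were *Kera* (r = 0.99), which encodes the proteoglycan keratocan, *Tbx18* (0.95) and *Eln* (0.95), the elastin gene. *Kera* was at 9.06 ± 6.51, 6.97 ± 3.96 and 3.42 ± 3.61 CPM (SD, n = 4) in the Jrt;Sost-het, the Jrt;Sost-ko and the WT group. Nearest to *Thbs4* were *Cyyr1* (0.97), *Pou6f1* (0.96) and *Tbx18* (0.95), which thus was near to both genes. Nearest to *Postn* were *Tnn* (0.98), a tenascin gene, *Thbs2* (0.98), a thrombospondin gene, and *Dkk3* (0.97). Nearest to *Tnc* were *Itga9* (0.95), which encodes an integrin subunit that binds tenascin C, *Ctnnb1* (0.94) and *Kdelr1* (0.94).

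Among the transcription factors, the genes nearest to *Prrx1* were *Ptprg* (0.99), *Ptprm* (0.98) and *Fgfr1* (0.98), of which the first and second encode receptor phosphatases and the last a fibroblast growth factor receptor. Nearest to *Scx* were *Fzd2* (0.97), a Frizzled receptor gene, *Map1a* (0.96) and *Pomgnt2* (0.95). Nearest to *Mkx* were *Jam3* (0.94), *Snai2* (0.94) and *Zfp334* (0.93). *Thbs2* and *Kera* are in the tendon list, and *Itga9* in the list of matrix receptor genes.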

How the data were processed

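RNA of 12 tibia shafts was sequenced after poly(A) selection. The authors aligned reads to GRCm38 with STAR and deposited raw counts for 47069 genes without normalization. The counting tool, its strand setting and the annotation release are not given in the sources used here. The authors' comparison tables (log2 fold changes and p-values) and the single-mouse tables were not used.

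Every comparison used a separate fit of the 8 mice concerned, made with edgeR 4.0.16 under R 4.3.3 (filterByExpr, TMM, glmQLFit, glmQLFTest, Benjamini-Hochberg, threshold 0.05). Standard errors were taken as the log2 fold change over the square root of F. Log2 CPM used a prior count of 2. Exact permutation tests ran over 70 arrangements, and correlations used 100000 permutations. Library totals ranged from 24366061 to 44418863, and same-group mice differed far beyond counting error (chi-square per degree of freedom 25.8 to 250.0 over 18 pairs). Nothing in the labels says that mice shared a litter or batch. The study's methods speak of littermates for the comparison of the Jrt groups, but give no litter for single mice.

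Alternatives were DESeq2 1.42.0, its size factors in edgeR, leaving the filter out, a minimum of 10 counts in every mouse, 1 fit of 12 mice, the muscle genes as a covariate, leaving out WT mice 3 and 4, and leaving out each mouse. For correlations they were a prior count of 0.5, scaling by library size alone and leaving out mice. The alternative without the 2 mice lowest in muscle genes, the relations between the 8 genes, the marrow list, the bone list without *Sost* and the relations to them were added after seeing the data. The 8 genes and the lists were chosen with earlier results of these data known. Named beside the 8 genes were the 3 nearest by r, up to 4 of each list by mean CPM, and *Sost* and *Col1a1*, and other names were chosen after their values were seen. Scripts were tested on simulated data.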

Additional observations from a re-analysis of the deposited data

Results flagged for a closer look

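*Prg4* in Jrt;Sost-ko mice drew attention because 1 of the 4 mice lay far from the rest. Mouse 3 had 779 CPM, and mice 1, 2 and 4 had 154, 163 and 159 CPM. The gap to the nearest mouse was 0.986 of the whole range, above Dixon's 95% critical value for 4 samples. It was the only one of 24 groups (8 genes in 3 groups of mice) to pass, where chance gives about 1.2. The *Prg4* value of mouse 3 rested on 29125 counts, and those of the others on 4309, 5466 and 4881. Mouse 3 was also the highest of the group in the summed synovial list, at 209.9 CPM against 129 to 148 CPM. In the muscle list its summed level was 13472 CPM, against 10162, 2296 and 32.0 CPM in mice 1, 2 and 4. The part of joint or muscle tissue in this value was not tested.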

How the results depend on the processing

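Of the log2 fold changes of the 8 genes, none crossed the threshold under any alternative, and 177 of 184 values kept their direction when single mice were not left out. Between the Jrt groups, *Tnmd* and *Thbs4* turned to 0.14 and 0.22 with the muscle genes as a covariate and to 0.21 and 0.23 without the mice lowest in muscle genes. That last step also turned *Prrx1* to -0.028 in Jrt;Sost-het against WT mice and *Scx* to -0.00659 in Jrt;Sost-ko against WT mice. Without WT mice 3 and 4, *Mkx* turned to 0.44 between Jrt;Sost-het and WT mice, and the medians of the tendon, periosteum and synovial lists rose to 0.999, 0.81 and 0.55. As deviations from group means, r of *Mkx* and *Prg4* turned from -0.16 to 0.12. Genes called between the Jrt groups went from 1 (*Sost*) to 15 with DESeq2 and to 0 with the muscle covariate or without the mice lowest in muscle genes. Between Jrt;Sost-ko and WT mice they went from 1 (*Sost*) to 14 with DESeq2, to 2 without the filter (*Gm37261* and *Sost*) and to 0 without the mice lowest in muscle genes. Leaving out each mouse in turn gave 0 to 3 and 0 to 2 called genes in these comparisons. *Sost* was no longer called between the Jrt groups without Jrt;Sost-ko mouse 1, 3 or 4, nor in Jrt;Sost-ko against WT mice without these or WT mouse 1 or 3. The other genes called were *Gm37261* (without Jrt;Sost-het mouse 2 or WT mouse 4) and *Gm9855* and *Tdg* (without Jrt;Sost-het mouse 3). Between the Jrt groups the log2 fold change then ranged from -0.16 to 0.26 for *Postn*, -0.34 to 0.25 for *Tnmd*, -0.42 to 0.23 for *Thbs4* and -0.022 to 0.13 for *Tnc*. The values of *Scx*, *Prrx1* and *Prg4* are given with their levels. Between Jrt;Sost-het and WT mice it ranged from -0.23 to 0.18 for *Mkx*, -0.047 to 0.71 for *Prg4*, -0.028 to 0.35 for *Prrx1* -0.0074 to 0.63 for *Scx*, 0.16 to 0.73 for *Postn*, 0.57 to 1.74 for *Tnmd* and 0.26 to 1.12 for *Thbs4*. Between Jrt;Sost-ko and WT mice it ranged from -0.19 to 0.46 for *Scx*, 0.13 to 0.55 for *Mkx*, 0.18 to 0.76 for *Postn*, 0.49 to 1.67 for *Tnmd*, 0.16 to 1.10 for *Thbs4*, 0.15 to 0.53 for *Prrx1* and -2.02 to -0.73 for *Prg4*. The relations to the muscle genes stayed above an adjusted p of 0.05 under each alternative tried. The median of the periosteum list between the Jrt groups ranged from -0.26 to 0.021, and that of the synovial list in Jrt;Sost-het against WT mice from -0.026 to 0.21, turning without Jrt;Sost-ko mouse 4 and without WT mouse 2. The cause of these shifts was not tested. No paired analysis was made, because the groups held different mice and the labels link none of them across groups. With 50 to 219 counts of *Scx* per library, counting error adds to the spread between mice for this gene.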

Other observations

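In the tendon, periosteum, synovial and matrix receptor lists, the genes with an unadjusted p under 0.05 between the Jrt groups were all lower in Jrt;Sost-ko mice. They were picked for these values after seeing them, and none passed the adjustment over all genes (adjusted p = 0.901 from edgeR for each). In the tendon list these were 2 of 15 genes, *Comp* (log2 fold change -0.91) and *Tnxb* (-0.68), which encodes a tenascin. In the periosteum list they were 2 of 15, *Dpt* (-0.73) and *Clec3b* (-0.79). In the synovial list they were 2 of 8, *Cd55* (-0.22) and *Has1* (-1.24), and in the matrix receptor list *Fn1* (-0.64) alone. In the bone list without *Sost*, by contrast, 3 of 11 genes had such a p, and each was higher in Jrt;Sost-ko mice. These were *Bglap* (0.46), *Bglap2* (0.35) and *Mepe* (0.70), also with an adjusted p of 0.901 from edgeR. DESeq2 called *Bglap* (adjusted p = 0.0442 from DESeq2). Of all genes tested in this comparison, 5.02% had an unadjusted p under 0.05. The muscle list (17 of 17 genes below 0, median -1.02) and the cartilage list (11 of 12 below 0, median -1.79) lay below 0 in the same comparison. Single mice with far higher levels of these lists are given above. The part of these lists in the values of the other lists was not tested. In comparisons with WT, *Sfrp2* of the periosteum list, a secreted Wnt-binding protein, was at 4.25, 4.08 and 1.90 CPM on average in the Jrt;Sost-het, the Jrt;Sost-ko and the WT group. Its log2 fold change against WT was 1.16 for Jrt;Sost-het and 1.10 for Jrt;Sost-ko mice, with an adjusted p from edgeR of 1 and 0.9996, and both comparisons use the same WT mice.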
